A study of Rattus norvegicus with 6 samples.

Results

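CpG-dense stretches of the rat hippocampus that were neither methylated nor unmethylated, but measured between both in every animal, are described here. The genome was divided into tiles of 1000 nucleotides (nt), and a tile was kept when it lay on chromosomes 1 to 20, held at least 30 CpG positions listed in any sample, had at least 50 CpG read calls in each of the 6 samples, and had a methylation level between 30% and 70% in each of them. The methylation level of a tile is the number of methylated read calls over all its CpGs divided by the number of all read calls. The rule kept 1010 tiles, which are 2.69% of the 37604 CpG-dense tiles with that coverage and 0.0710% of all 1421817 covered autosomal tiles. They are called intermediate tiles below. The tiles were chosen by these methylation levels, which are therefore given as a description, and the tests between diets that use them support nothing about the tiles. The 8878 CpG-dense tiles above 70% in every sample (methylated tiles) and the 20502 below 30% in every sample (unmethylated tiles) serve for comparison.

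Whole-genome bisulfite sequencing had been performed on hippocampi of CD1 Sprague-Dawley rat pups at postnatal day 15. In the iron-deficient group (n = 3), the dams received a diet with 4 ppm iron from gestational day 2 to postnatal day 7 and the diet with 200 ppm iron afterwards. The iron-sufficient group (n = 3) had 200 ppm iron throughout. The samples are biological replicates, and neither litter nor sex was stated. No expression was measured, so the tissue was not checked against marker genes. The dissected hippocampus holds neurons, glia and vessels, and methylation of whole tissue cannot tell a mixture of cell types from a mixture of alleles within each cell. The files listed between 16699344 and 21093430 CpGs per sample, with a median coverage between 17 and 33 reads.

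In mammals, a CpG island at an active or poised promoter is usually free of methylation, while most CpGs elsewhere are methylated. Intermediate methylation of an island is known from imprinted genes, where the copy from 1 parent is methylated and the other is not, and from the clustered protocadherins, cell surface proteins of neurons, where each neuron uses its own few promoters and methylates others. It also appears where a unit of fixed length happens to span the border between an unmethylated island and its methylated surroundings. A list of 45 imprinted genes was therefore examined by name, and each tile was examined CpG by CpG. The protocadherin clusters were examined after the positions of the tiles had been seen.

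The files give positions in the rn4 build, and no annotation of rn4 was used. Promoters were instead found from the data. RefSeq promoter sequences of the GRCr8 build, 300 bases of which the last 50 lie behind a gene's start, were placed among the listed CpGs by the distances between their CpGs. A promoter was placed when at least 8 CpGs and at least 80% of its CpGs matched listed positions on the same chromosome, and no second position matched as well. This placed promoters of 11828 genes on the autosomes. Of all promoter sequences that met the other criteria, 99.4% had fallen on their own chromosome without being asked to. The promoters that bear on the intermediate tiles are shown here, each from 5′ to 3′ in the sense of the gene, with each CpG in capitals. The first 4 belong to imprinted genes that lay in or beside intermediate tiles. Their places in GRCr8 are chr4:89354655-89354954 on the minus strand for Nap1l5, chr1:76130744-76131043 on the plus strand for Peg3, chr6:134273806-134274105 on the plus strand for Meg3 and chr1:125291783-125292082 on the plus strand for Magel2.
Nap1l5: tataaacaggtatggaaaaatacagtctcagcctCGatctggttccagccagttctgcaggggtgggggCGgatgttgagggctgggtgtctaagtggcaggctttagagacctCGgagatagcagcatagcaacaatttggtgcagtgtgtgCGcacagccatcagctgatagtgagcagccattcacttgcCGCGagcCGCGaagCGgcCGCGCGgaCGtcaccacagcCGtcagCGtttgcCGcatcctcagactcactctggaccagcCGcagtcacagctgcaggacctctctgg
Peg3: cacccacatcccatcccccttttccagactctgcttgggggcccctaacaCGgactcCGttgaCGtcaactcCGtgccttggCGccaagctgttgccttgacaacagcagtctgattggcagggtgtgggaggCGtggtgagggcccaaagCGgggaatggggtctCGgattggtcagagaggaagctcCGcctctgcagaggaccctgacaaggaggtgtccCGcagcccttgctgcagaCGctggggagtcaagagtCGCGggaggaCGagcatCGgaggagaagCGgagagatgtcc
Meg3: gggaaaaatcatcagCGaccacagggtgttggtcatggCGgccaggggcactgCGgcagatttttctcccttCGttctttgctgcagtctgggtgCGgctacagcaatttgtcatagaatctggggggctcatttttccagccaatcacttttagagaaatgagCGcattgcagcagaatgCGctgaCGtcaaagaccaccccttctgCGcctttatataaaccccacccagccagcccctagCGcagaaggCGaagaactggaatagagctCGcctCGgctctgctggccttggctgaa
Magel2: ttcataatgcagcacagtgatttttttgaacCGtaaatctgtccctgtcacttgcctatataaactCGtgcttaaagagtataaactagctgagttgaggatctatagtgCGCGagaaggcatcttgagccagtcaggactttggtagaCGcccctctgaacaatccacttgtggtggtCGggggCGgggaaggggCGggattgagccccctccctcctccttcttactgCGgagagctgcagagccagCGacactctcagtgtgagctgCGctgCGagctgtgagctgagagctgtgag

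The next 2 belong to genes known from germ cells. All promoter CpGs of Meiosin and 85.7% of those of Sohlh1 lay in intermediate tiles. Sohlh1, a transcription factor of early germ cells, is at chr3:29065539-29065838, and Meiosin, which acts in the entry into meiosis, is at chr1:87896040-87896339, both on the minus strand of GRCr8. The last 2 are promoters of clustered protocadherins with an intermediate tile within the gene just behind them, Pcdha4 at chr18:28876919-28877218 and Pcdhga9 at chr18:29815595-29815894, both on the plus strand.
Sohlh1: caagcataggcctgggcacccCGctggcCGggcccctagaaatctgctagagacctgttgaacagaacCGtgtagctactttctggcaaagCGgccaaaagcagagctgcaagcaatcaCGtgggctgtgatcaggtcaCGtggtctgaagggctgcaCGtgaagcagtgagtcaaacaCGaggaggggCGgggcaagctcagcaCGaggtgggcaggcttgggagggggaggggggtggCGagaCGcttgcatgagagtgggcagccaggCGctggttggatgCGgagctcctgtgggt
Meiosin: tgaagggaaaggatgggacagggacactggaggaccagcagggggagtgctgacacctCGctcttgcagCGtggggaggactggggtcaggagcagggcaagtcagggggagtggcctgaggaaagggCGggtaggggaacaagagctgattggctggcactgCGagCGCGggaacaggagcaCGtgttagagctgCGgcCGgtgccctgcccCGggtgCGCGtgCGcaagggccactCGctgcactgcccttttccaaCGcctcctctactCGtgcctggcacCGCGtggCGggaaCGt
Pcdha4: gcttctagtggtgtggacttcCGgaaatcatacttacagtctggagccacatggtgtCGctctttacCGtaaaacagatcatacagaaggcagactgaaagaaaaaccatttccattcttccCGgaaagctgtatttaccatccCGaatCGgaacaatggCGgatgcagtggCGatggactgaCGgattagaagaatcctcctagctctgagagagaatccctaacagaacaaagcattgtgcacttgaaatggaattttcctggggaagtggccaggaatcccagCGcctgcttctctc
Pcdhga9: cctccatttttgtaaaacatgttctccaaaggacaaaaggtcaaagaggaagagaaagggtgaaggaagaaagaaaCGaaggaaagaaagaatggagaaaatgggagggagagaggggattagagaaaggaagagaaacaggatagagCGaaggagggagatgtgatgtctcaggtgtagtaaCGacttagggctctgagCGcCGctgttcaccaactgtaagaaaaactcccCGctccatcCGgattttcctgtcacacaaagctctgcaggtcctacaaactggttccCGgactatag
The sequences hold from 8 CpGs in Pcdhga9 to 20 in Meiosin. All 17 CpGs of Nap1l5, 16 of Peg3, 13 of Meg3 and 12 of Magel2 matched listed positions. The hexamer TGCCGC, which the imprint-protecting protein ZFP57 is known to bind when methylated, was searched on both strands. It occurred 2 times in the Nap1l5 sequence and 1 time in that of Meg3, and not in the other 6. Of all 33469 promoter sequences 11.7% held it, of the 13352 placed ones 20.9%, and of the 37 in intermediate tiles 8.11%. TCCCGC, a hexamer bound by E2F factors, occurred 2 times each in Peg3 and Meiosin and 1 time in Magel2, and in 18.7% of all, 35.4% of the placed and 21.6% of the 37 promoter sequences. Both hexamers were thus no more frequent in these 37 than in placed promoters.

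The intermediate tiles held 36214 CpGs. The median was 33 CpGs per tile, equal to the 33 of methylated tiles and below the 51 of unmethylated tiles. In 203 of the 1010 tiles the number was the minimum of 30, and a further 248 tiles with 29 CpGs met the rest of the rule. Only 73 intermediate tiles held 50 CpGs or more. The threshold of 30% passed between a tile on chromosome 6 (71579001 to 71580000) whose lowest sample had exactly 30% and a tile on chromosome 10 (107096001 to 107097000) whose lowest sample had 29.99%. The threshold of 70% passed between a tile on chromosome 6 (40911001 to 40912000) with 70% in its highest sample and a tile on chromosome 12 (27410001 to 27411000) with 70.02%. The lowest number of reads in any sample of an intermediate tile was 100, above the minimum of 50, and the median was 1028.

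A mean of about 50% can come from CpGs that are each intermediate or from a methylated beside an unmethylated side. To separate these, the reads of all 6 samples were pooled for each CpG, and CpGs with at least 30 reads in sum were used. A tile was called an edge when the best split, with at least 5 CpGs on each side, separated the sides by 50 percentage points or more. It was called even when it was no edge and at least 80% of its CpGs lay between 20% and 80%. Of the 1010 tiles, 217 (21.5%) were even, 257 (25.4%) were edges and 536 (53.1%) were neither and are called uneven. These counts followed the limits chosen, since 75 tiles were even with CpGs between 25% and 75%, 55 with a share of 90%, and 475 were edges with a difference of 40 percentage points. In 127 edges methylation rose with the coordinate and in 130 it fell. Over all tiles, the median share of CpGs between 20% and 80% was 67.0%, with a range from 6.67% to 100%. The data thus match a description as evenly intermediate islands for a minority of the tiles.

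**Figure D1:**
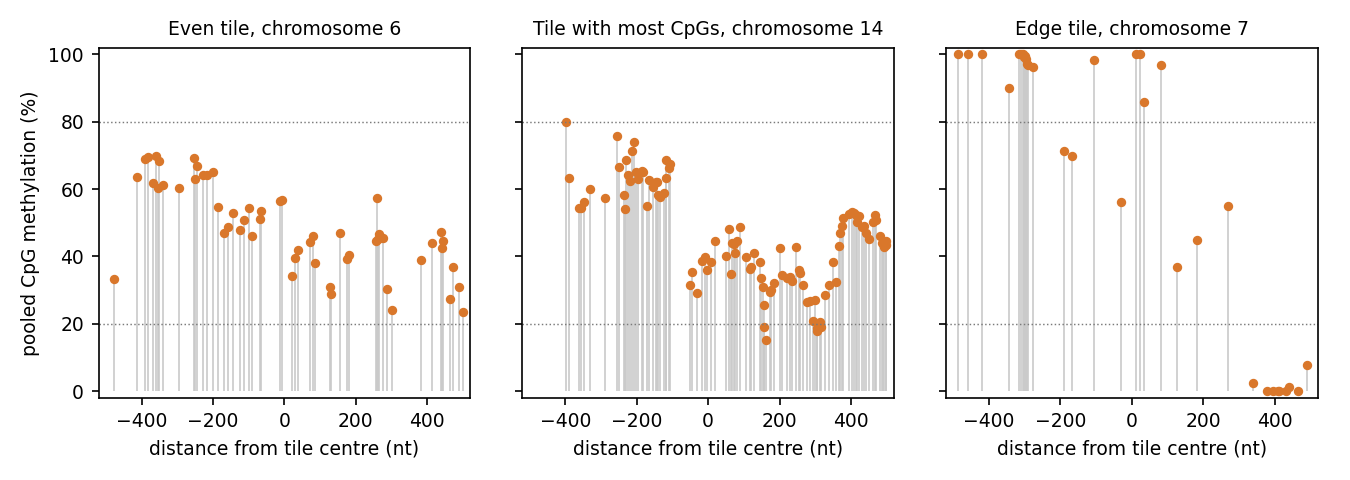
Pooled methylation of single CpGs (vertical axis, percent) against their distance from the tile centre (horizontal axis, nt) in 3 intermediate tiles. Points are CpGs and dotted lines mark 20% and 80%. All 55 CpGs of the even tile lie between the lines, while the edge tile falls from 87.2% on its left to 1.26% on its right.

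The even tile with the most CpGs of those at a share of 100% lay on chromosome 6 from 134103001 to 134104000. Its methylation was 43.4%, 55.8% and 41.1% in iron-sufficient replicates 1, 2 and 3 and 49.3%, 53.9% and 42.2% in iron-deficient replicates 1, 2 and 3. Both groups thus overlapped. Each of its 55 CpGs lay between 23.5% and 69.9%. The tile lay 13.3 kb before the placed promoter of Meg3, on the side of Dlk1, where an imprint control region of this gene pair is known. It also held the promoter of the uncharacterised gene LOC134479157. The other even tiles named by share of CpGs lay on chromosome 7 (110540001 to 110541000, 38 CpGs), chromosome 3 (105206001 to 105207000, 36 CpGs), chromosome 19 (50894001 to 50895000, 31 CpGs) and chromosome 1 (65502001 to 65503000, 51 CpGs). The first 3 of these had a share of 100%, and the last had 98%. The tile on chromosome 7 had no placed promoter within 4580 kb on either side, and 179 genes lie between the nearest ones in RefSeq, among them the listed imprinted gene Trappc9. That on chromosome 3 lay between the placed promoters of Ankrd63 (7.72 kb) and Inafm2 (43.0 kb). That on chromosome 19 lay between those of Gse1 (20.03 kb) and Gins2 (33.3 kb), and that on chromosome 1 lay in Peg3.

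The tile with the most CpGs of all, 105, lay on chromosome 14 from 92910001 to 92911000. Its methylation was 51.1%, 39.8% and 40.5% in the iron-sufficient and 37.4%, 52.0% and 32.5% in the iron-deficient replicates. It was even, with 95.2% of its CpGs between 20% and 80%. The nearest placed promoters were those of Fignl1, 216 kb before it, and Pom121l12, 2562 kb behind it, and 20 genes lie between these genes in RefSeq. Grb10, an imprinted adaptor of growth factor receptors, is among them.

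The largest edge lay on chromosome 7 from 139884001 to 139885000, with 87.2% on its left and 1.26% on its right. In the edge on chromosome 20 (5764001 to 5765000) the sides had 92.0% and 8.32%. The edge on chromosome 18 (60685001 to 60686000) rose from 6.30% to 89.5%, that on chromosome 5 (74906001 to 74907000) from 15.4% to 97.7%, and that on chromosome 16 (5544001 to 5545000) from 7.38% to 88.3%. In these 5 tiles, between 9.68% and 21.2% of the CpGs were intermediate. The level of the tile therefore described few of its CpGs. The chromosome 18 edge lay 23.0 kb from the placed promoter of Fech, the last enzyme of heme synthesis, with RGD1562699 and Onecut2, whose promoters were not placed, in the same interval. The chromosome 5 edge lay 9.92 kb from that of Frrs1l, a subunit needed for AMPA receptor assembly.

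Even tiles, edges and uneven tiles each had a median of 33 CpGs. The median relative coverage, defined below, was 1.28 in even tiles, 1.19 in edges and 1.18 in uneven tiles. The share with 50 CpGs or more was 10.1% of even tiles, 5.45% of edges and 6.90% of uneven tiles. These classes were cut from the same reads and are given without a test.

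Single samples looked less intermediate than the pooled reads. Among CpGs of intermediate tiles with at least 10 reads in a sample, the share between 20% and 80% was 54.9%, 27.2% and 40.9% in iron-sufficient replicates 1, 2 and 3 and 43.7%, 31.8% and 51.6% in iron-deficient replicates 1, 2 and 3. In iron-sufficient replicate 2, 35.7% of these CpGs were below 20% and 37.2% above 80%. The order of the 6 samples by this share was their order by number of listed CpGs, from 16699344 in iron-sufficient replicate 2 to 21093430 in iron-sufficient replicate 1. It was not their order by coverage, since iron-deficient replicate 2 had the highest median coverage of 33 reads and the second lowest share. In methylated tiles the share was 10.9% to 21%, with the lowest in iron-sufficient replicate 2 as well, and in unmethylated tiles it was 6.08% to 9.59%. In even tiles it was still between 34.9% and 66.2% depending on the sample. Whether few source molecules per CpG, amplified before sequencing, took part in this was not tested.

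**Figure D2:**
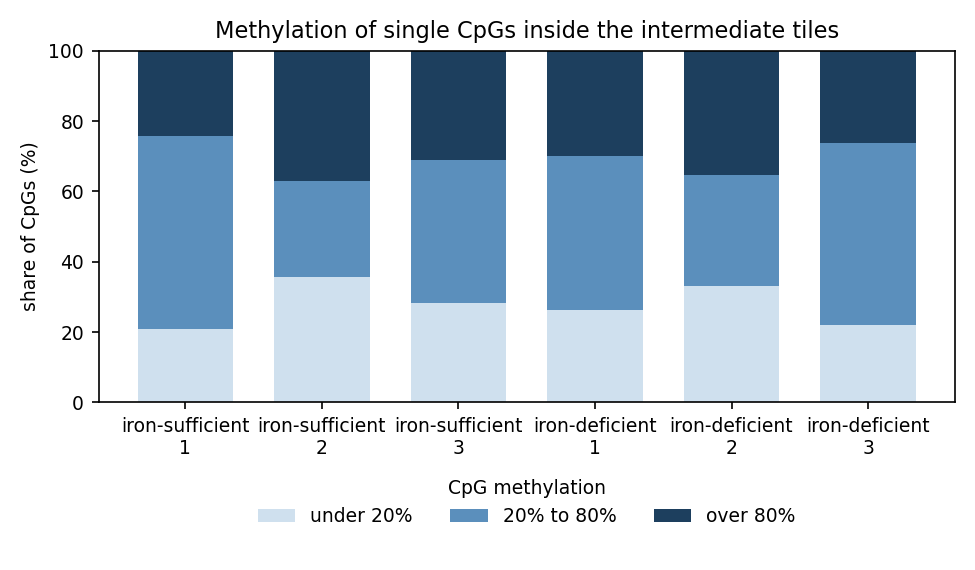
Share of the CpGs in the intermediate tiles (vertical axis, percent) that were below 20%, between 20% and 80%, or above 80% methylated, for each sample (horizontal axis), over CpGs with at least 10 reads. The middle class runs from 27.2% in iron-sufficient replicate 2 to 54.9% in iron-sufficient replicate 1.

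Values of the same CpG in different animals were moderately alike. Over the 15 pairs of samples, Pearson's r across the CpGs of intermediate tiles was 0.343 to 0.538, and 0.342 to 0.536 after each tile's mean was removed. The highest r joined iron-sufficient replicate 1 with iron-deficient replicate 3, and the lowest joined the replicates numbered 2, which also had the fewest listed CpGs. Across the tiles themselves r was 0.169 to 0.396, within the band that the rule left. These correlations are across CpGs and tiles of the same libraries, which are not independent, and are a description.

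The SD of a tile over the 6 samples had a median of 8.09 percentage points, with a range from 1.33 to 15.9. Counting error alone gives a median of 1.59 percentage points for the same reads, if every read call were independent. In 985 of the 1010 tiles the SD was more than 2 times the counting error. The median SD within a group of 3 was 7.36 percentage points in the iron-sufficient and 7.06 in the iron-deficient group. Different animals are not bound to agree within counting error, and the band limited the SD, so both are a description.

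The levels of these tiles were set side by side by diet. Over all intermediate tiles, the mean methylation was 50.6%, 50.5% and 50.8% in iron-sufficient replicates 1, 2 and 3 and 50.8%, 50.7% and 51.2% in iron-deficient replicates 1, 2 and 3. The groups overlapped. The group means were 50.6% ± 0.147 (SD, n = 3) and 50.9% ± 0.263 (SD, n = 3), a difference of 0.221 percentage points. The band itself holds this mean near 50%, and the difference is given without a test.

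All tiles were also tested singly with edgeR's quasi-likelihood test on methylated and unmethylated read counts, fitted over 1121479 autosomal tiles. At a Benjamini-Hochberg adjusted p of at most 0.05, 0 of the 1010 intermediate tiles were called, against 0% of all tiles. An unadjusted p under 0.05 was found in 6 intermediate tiles (0.594%), 3 higher and 3 lower in iron deficiency. In this fit it was found in 2.9% of all tiles and in 5.62% of the 37590 CpG-dense tiles tested. limma on log2 ratios of the same counts called 0 tiles and gave an unadjusted p under 0.05 in 2 intermediate tiles and in 45818 of all 1121479. The rule had used the same counts and limited every difference to under 40 percentage points, so nothing is read from these counts of calls. The replicates of both groups did not overlap in 61 intermediate tiles with higher and 51 with lower methylation in iron deficiency. Over all tiles, 5.98% were higher and 4.04% lower without overlap, and the intermediate tiles had 6.04% and 5.05%, so these shares say nothing particular about them. The weighted difference, from counts summed over each group, passed 10 percentage points in 186 tiles and 20 percentage points in 7. No share over all tiles was worked out for these sizes, so nothing is read from these numbers either.

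The 4 largest increases and decreases without overlap are given for their size only. On chromosome 5 from 74905001 to 74906000, methylation was 37.1%, 38.3% and 33.7% in the iron-sufficient and 61.9%, 69.5% and 59.9% in the iron-deficient replicates. Every iron-deficient animal was above every iron-sufficient one, with a weighted difference of 29.3 percentage points. The tile lay 8.92 kb from the placed promoter of Frrs1l and directly before the edge on chromosome 5 described above, which had 45.3% ± 2.37 and 57.8% ± 9.03 (SD, n = 3 each) in the iron-sufficient and iron-deficient group. The other 3 increases were 21.3 percentage points on chromosome 12 (44682001 to 44683000), 20.1 on chromosome 3 (87377001 to 87378000) between Ldlrad3 and Trim44, and 19.6 on chromosome 12 (34443001 to 34444000). The last lay 29.1 kb from the placed promoter of Psmd9, a chaperone of the proteasome. Between the placed promoters around it lie 7 further RefSeq genes, among them Mlxip and Bcl7a. The chromosome 3 tile had 61.4%, 54.9% and 31.8% in the iron-sufficient and 66.4%, 63.4% and 66.2% in the iron-deficient replicates. Its difference rested on iron-sufficient replicate 3 and was 8.0 percentage points without it.

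The largest decrease was on chromosome 9 from 32976001 to 32977000, where methylation was 66.9%, 60.5% and 57.0% in the iron-sufficient and 42.4%, 32.0% and 33.3% in the iron-deficient animals. The weighted difference was -25.4 percentage points. Dst, a linker of the cytoskeleton, is a named RefSeq gene between the nearest placed promoters there. A decrease of -18.8 percentage points on chromosome 5 (145259001 to 145260000) lay far from the nearest placed promoters. These were Grik3, a kainate receptor subunit, at 417 kb and Csf3r at 115 kb, with 8 RefSeq genes between them. The other decreases were -18.8 on chromosome 9 (9045001 to 9046000) and -17.5 at the very start of chromosome 15 (3001 to 4000). The last had 59.3%, 68.9% and 62.6% in the iron-sufficient and 48.1%, 35.5% and 57.1% in the iron-deficient replicates, and its difference was -11.1 percentage points without iron-deficient replicate 2. Leaving out any 1 replicate moved the other 6 differences by less than 1.5 times.

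Imprinted genes were then examined from the list of 45. RefSeq promoter sequences were at hand for 30 of them, and 20 were placed on the autosomes. An intermediate tile lay within 5 kb of the promoters of 5 of the 20 (25%), namely Nap1l5, Peg3, Meg3, Magel2 and Gnas. For all placed genes the share was 1.33% (157 of 11828). In both shares, a gene with several placed promoters was represented by the one nearest to an intermediate tile. The values of listed genes are also those of this promoter. Within 35 kb, a wider distance for which no share over all placed genes was worked out, there were 8 intermediate tiles. Of these, 5 were even, 1 was an edge and 2 were uneven, and their levels ranged from 30.3% to 67.6%. The groups overlapped in all 8. Distances run from the middle of the promoter to the middle of the tile, in the direction of the gene.

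Nap1l5, a paternally expressed gene that lies within an intron of Herc3, was the only listed gene whose promoter lay inside an intermediate tile, on chromosome 4 from 87798001 to 87799000. The tile had 30.3%, 42.4% and 47.0% in the iron-sufficient and 40.5%, 55.9% and 52.6% in the iron-deficient animals. The group means were 39.9% ± 8.66 and 49.7% ± 8.12 (SD, n = 3 each). Each of the 17 CpGs of the promoter sequence shown above had a pooled methylation between 31.2% and 54.1%. The promoter of Herc3 itself had a median of 2.74% over the samples.

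Peg3, a paternally expressed zinc finger gene, had an even tile of 51 CpGs 0.917 kb into the gene. Its methylation was 49.5%, 61.7% and 30.3% in the iron-sufficient and 56.8%, 41.2% and 43.8% in the iron-deficient animals. The lowest and the highest value both belonged to iron-sufficient animals. The 16 CpGs of its promoter lay between 37.9% and 65.2%. The tile that holds the promoter was at 24.5% in its lowest sample and so outside the rule.

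Igf2r, the receptor that removes the growth factor IGF2, is controlled by a methylated region within the gene, from which the antisense RNA Airn starts. An even tile of 79 CpGs lay 29.3 kb into Igf2r, on chromosome 1 from 42282001 to 42283000. It had 41.8%, 64.9% and 37.9% in the iron-sufficient and 48.3%, 58.5% and 40.6% in the iron-deficient replicates, with 93.7% of its CpGs intermediate. The promoter of Igf2r had a median of 6.12% over the 6 samples.

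Meg3, a maternally expressed long RNA, had 3 intermediate tiles within 35 kb. Besides the even tile 13.3 kb before it, an uneven tile of 32 CpGs lay 1.31 kb before it, and an even tile of 35 CpGs lay 0.694 kb into the gene. The last had 59.2%, 37.6% and 36.6% in the iron-sufficient and 49.0%, 42.0% and 35.04% in the iron-deficient animals. The tile of the promoter itself reached 77.2% in iron-sufficient replicate 2 and missed the rule, although its 13 promoter CpGs had pooled values between 41.2% and 62.8%. Dlk1, the paternally expressed partner of Meg3, had a promoter median of 3.34%.

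Magel2 and Gnas showed a less even picture. The tile 0.868 kb into Magel2, a paternally expressed gene of the Prader-Willi region, was an edge with 25.7% on its left and 81.2% on its right. It also was among the steadiest of the 8, at 46.5%, 36.2% and 43.9% in the iron-sufficient and 43.4%, 40.7% and 42.8% in the iron-deficient replicates. Gnas, which codes for the stimulatory G protein subunit and has several imprinted promoters, had an uneven tile of 30 CpGs 3.201 kb into the gene, at 41.6% ± 7.38 in the iron-sufficient and 46.6% ± 7.33 in the iron-deficient group (SD, n = 3 each). Snrpn, a paternally expressed splicing gene, missed the rule by a single sample, with 28.7% in iron-sufficient replicate 3. The promoters of the other listed genes that were placed, among them Igf2, Ube3a, Copg2, Zdbf2, Rasgrf1 and Commd1, had medians from 0.192% to 12.3%.

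**Figure D3:**
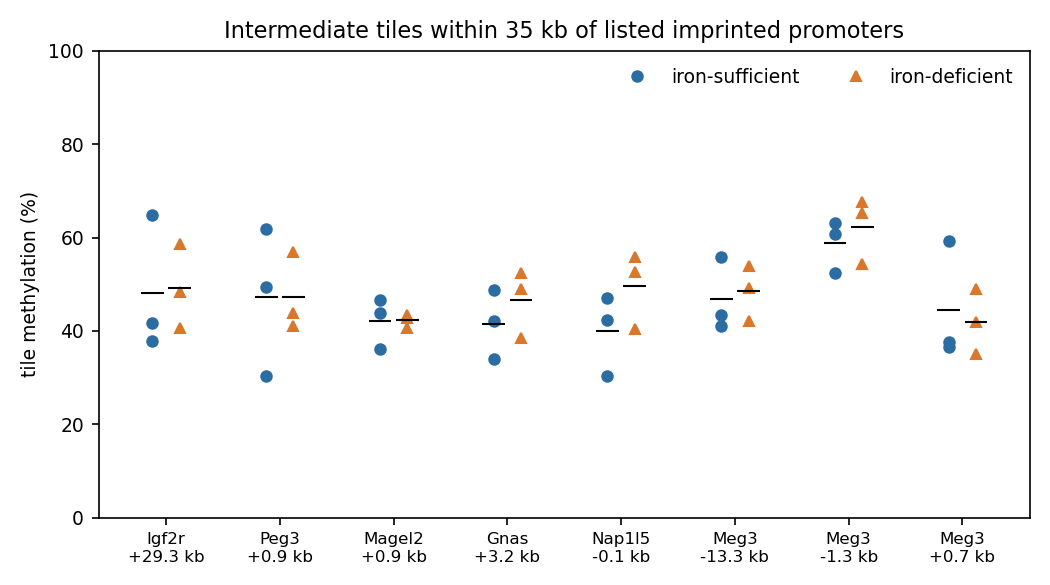
Tile methylation (vertical axis, percent) of the 8 intermediate tiles within 35 kb of a placed promoter of the imprinted gene list. Points are samples, short lines are group means (n = 3), and the kb under each gene give the distance from its promoter in the direction of the gene. The groups overlap in all 8 tiles.

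The intermediate tiles were most crowded in the protocadherin clusters of chromosome 18. Between the placed promoters of Zmat2 and Diaph1, which enclose the Pcdha, Pcdhb and Pcdhg genes, 38 of 91 CpG-dense tiles (41.8%) were intermediate, over 1361 kb from 29494001 to 30855000. Elsewhere the share was 2.59%, and on the rest of chromosome 18 it was 2.15% (23 of 1070). The interval was singled out after the positions of the tiles had been seen, and the shares are a description. By chromosome, the share ran from 1.91% on chromosome 4 to 5.25% on chromosome 18.

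These 38 tiles held a median of 42.5 CpGs and a median relative coverage of 1.501, between 0.762 and 2.18. Protocadherin genes resemble each other, and whether reads could be exchanged between them was not tested. Of the 38 tiles, 10 were even, 3 were edges and 25 were uneven. Their mean methylation was 51.4%, 48.6% and 50.7% in iron-sufficient replicates 1, 2 and 3 and 51.9%, 51.8% and 52.6% in iron-deficient replicates 1, 2 and 3. Their median SD over samples was 5.28 percentage points, and 3 tiles were higher and 0 were lower in iron deficiency without overlap, beside 5.98% higher and 4.04% lower over all tiles.

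The tiles fell into 3 stretches. Around Pcdha4, 16 of 31 CpG-dense tiles were intermediate, with a median level of 54.9%. In the stretch with Pcdhb2 and Pcdhb20 it was 4 of 16, with 61.1%, and in the Pcdhg stretch 18 of 38, with 45.4%. Between the first and second stretch 0 of 6 were intermediate. The only runs of 3 adjacent intermediate tiles in the data lay here, from 29661001 to 29664000, 19.9 kb before Pcdha4, and from 30640001 to 30643000, before Pcdhga9. The first tile of the former run had 32.0%, 44.6% and 37.1% in the iron-sufficient and 46.6%, 34.4% and 39.9% in the iron-deficient replicates. In all, 44 intermediate tiles stood in 21 runs of at least 2, and the next run by number of CpGs lay on chromosome 7 from 10387001 to 10389000, between Lingo3 and Oaz1.

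**Figure D4:**
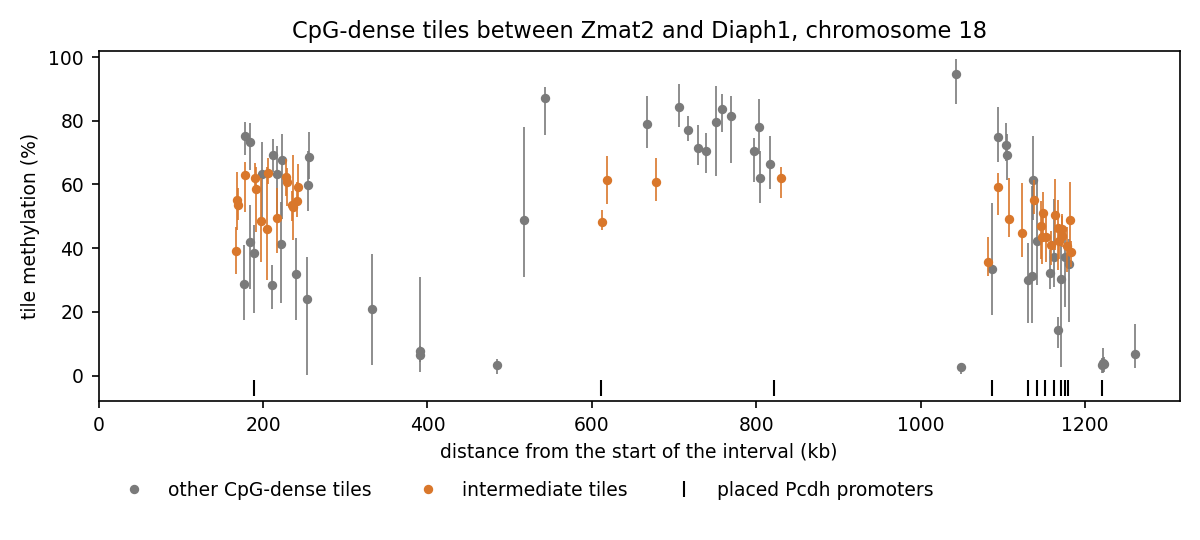
Methylation of CpG-dense tiles (vertical axis, percent) along the interval between Zmat2 and Diaph1 (horizontal axis, kb from its start). Points are means of 6 samples, lines run from the lowest to the highest sample, and ticks mark the 12 placed protocadherin promoters. Intermediate tiles make up 38 of the 91 tiles and lie in 3 stretches.

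None of the 12 placed protocadherin promoters had more than 50% of its CpGs in an intermediate tile. In 7 of the 12, the nearest intermediate tile lay between 0.835 kb (Pcdhga9) and 2.12 kb (Pcdhgb8) into the gene, where the long variable first exon of these genes is known to be. The promoter windows themselves varied widely. Pcdha4 had 52.2%, 36.3% and 45.2% in the iron-sufficient and 47.6%, 3.92% and 53.4% in the iron-deficient replicates. Its low value came from iron-deficient replicate 2 only. Pcdhga11 ran from 1.89% in iron-sufficient replicate 2 to 78.8% in iron-sufficient replicate 1, with 53 reads in the sample with the fewest. Both low values thus came from the replicates numbered 2, which had the fewest listed CpGs. Whether the libraries took part in these values was not tested. Pcdhgc3, a C-type gene known to be expressed without the random choice of the others, was the exception with 0.222% to 4.57%.

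Other promoters were found in intermediate tiles without a list. Of 11828 placed genes, 37 (0.313%) had more than 50% of their promoter CpGs in such tiles, 21 with a gene name and 16 with a LOC symbol. The genes named here were picked out after their values were seen, and no gene group was tested among the 37. Of the first 6, Sohlh1 had the narrowest range, 42.7% to 54.2% over the 6 samples, with 47.1%, 54.2% and 42.7% in the iron-sufficient and 48.9%, 50.6% and 49.7% in the iron-deficient replicates. Meiosin ran from 6.11% to 42.0%, and Rsph6a, a part of the sperm flagellum, from 23.5% to 85.0%. Insl6, a relaxin-like hormone of the testis, ran from 13.9% to 82.2%, and Tsks, a substrate of testis kinases, from 8.26% to 58.0%. The 6.11%, 82.2% and 8.26% were in iron-deficient replicate 2, and the 85.0% in iron-sufficient replicate 2, the samples with the fewest listed CpGs. The other ends of these ranges lay in other samples. The lowest number of reads in a sample was 45 for Insl6 and 63 for Tsks. Rnf212, which acts in meiotic crossing over, had no reads in its promoter in iron-sufficient replicate 2 and a median of 39.6% over the other 5.

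Ucp1, the uncoupling protein of brown fat, had 24.2% to 57.5% with a median of 41.6%. Pax8, a transcription factor of thyroid and kidney, had 40.3% to 88.4%, and Lpar3, a receptor for lysophosphatidic acid, had 38.5% to 71.7%. Ptgir, the prostacyclin receptor, had 19.8% to 55.5%. Tymp, a thymidine phosphorylase, had 33.7% to 53.4%, and Zfp34, a zinc finger gene, had 46.9% to 61.8%. Lying in an intermediate tile did not make a promoter intermediate. Prkcz, an atypical protein kinase C, had 0.287% to 5.43% over its 33 matched CpGs. Cfi, a protease of the complement system, had 53.4% to 99.4% with a median of 94.0%, and 31 reads in the sample with the fewest.

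Coverage and surroundings were compared between the classes of tiles. The rule had used coverage as a minimum of 50 reads and as the weight of each CpG in the level of a tile. The relative coverage is the coverage per CpG of a tile divided by the median over all covered autosomal tiles of the sample. Intermediate tiles had a median of 1.18 ± 0.0488 (SD over 6 samples), methylated tiles 1.11 ± 0.0646 and unmethylated tiles 1.57 ± 0.0869. The difference was 0.0766 to methylated and -0.382 to unmethylated tiles, each in the same direction in 6 of 6 samples (exact sign-flip permutation test, p = 0.031, adjusted p = 0.031 over 4 tests, the smallest that 6 samples can give). The rule had used coverage, and the same tiles were compared in each sample, so nothing is read from these p-values. With means over tiles in place of medians, the differences were 0.176 and -0.228. Of the intermediate tiles, 31 had a relative coverage over 2, 9 were under 0.5 and 3 were over 10. These 3 reached 105 on chromosome 18 (38793001 to 38794000), 40.8 on chromosome 3 (556001 to 557000) and 10.6 on chromosome 7 (956001 to 957000). The first had a level between 60.1% and 63.6% in all samples. Of the CpGs of intermediate tiles, 70.5% were listed in all 6 files, against 63.2% in methylated and 83.7% in unmethylated tiles.

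Adjacent tiles that were intermediate themselves were left out of the comparison of surroundings, while adjacent methylated and unmethylated tiles were kept. The tiles on both sides had 65.03% ± 0.561 methylation (SD over 6 samples), compared with 81.0% ± 0.537 beside methylated and 30.1% ± 0.491 beside unmethylated tiles. The differences of -15.9 and 34.9 percentage points had the same direction in 6 of 6 samples (exact sign-flip permutation test, p = 0.031 and adjusted p = 0.031 each). They were -7.08 and 13.8 at a distance of 2 tiles, and -13.8 and 54.8 with the median over flanks. Tiles beside intermediate tiles were thus more methylated than those beside unmethylated tiles and less than those beside methylated tiles. The classes had been cut by methylation in these same samples. Neighbours of the same class, with levels limited by the rule, were left out for intermediate tiles only. The direction was therefore partly set by the classes, and nothing is read from these p-values. At 5 kb the levels were 69.9% to 70.7% around intermediate, 75.5% to 75.8% around methylated and 67.6% to 67.8% around unmethylated tiles.

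**Figure D5:**
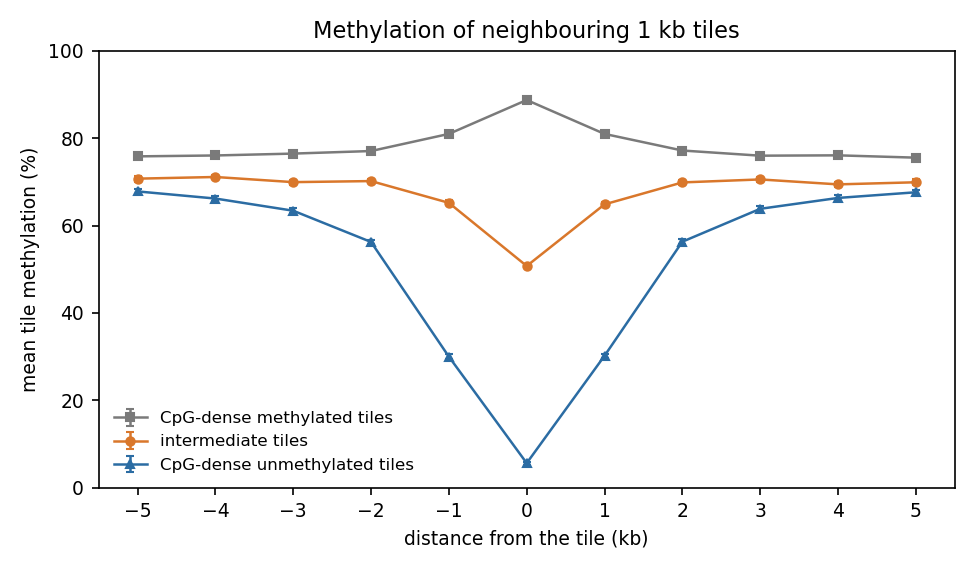
Mean methylation of 1 kb tiles (vertical axis, percent) at distances up to 5 kb (horizontal axis) from intermediate, methylated and unmethylated CpG-dense tiles. Points are means and bars the SD over 6 samples. The intermediate tiles dip to 50.8% between neighbours at 65.2% and 64.9%.

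Both neighbours were covered in 886 intermediate tiles. In 232 of them (26.2%) both neighbours were above 70%, so that the tile was a dip in methylated surroundings, and in 98 (11.1%) 1 neighbour was below 30% and the other above 70%. Both patterns occurred in even tiles, with 23.3% and 7.94%, and in edges, with 19.8% and 15.4%. Of the intermediate tiles, 15.4% lay within 5 kb of a placed promoter, compared with 8.35% of methylated and 62.6% of unmethylated tiles.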

How the data were processed

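Whole-genome bisulfite libraries of 6 hippocampi had been aligned to rn4 with bs seeker, and both strands of a CpG merged, by the authors. The deposited files give, per CpG, a methylated fraction and a coverage as a read count. Multiplying both gave a value within 0.01 of an integer for each CpG, and these products were used as methylated counts. Duplicate removal is not given in the sources, and counting errors assume independent reads. Whether positions count from 0 or 1 was not stated. Counts were summed in tiles of 1000 nt by Python 3.11.15 (numpy 2.4.6). Tiles with 50 reads per sample and 5 CpGs seen in each were tested with edgeR 4.0.16 (R 4.3.3, sample effects, common dispersion, Benjamini-Hochberg over all tiles). limma 3.58.1 was the alternative. The scripts were tested on simulated data. Single values were compared by exact permutation or sign-flip tests over samples. RefSeq promoters (GRCr8) were placed from 5 successive CpG distances.

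The members and gene lists were chosen with earlier results of these data known. Tiles were named as the 3 longest runs of adjacent tiles, the 5 even tiles with the highest share of intermediate CpGs at a relative coverage of 0.5 to 2, the 5 largest edges, the 4 largest increases and decreases without overlap, the 3 highest by coverage, the tile with the most CpGs and those at the thresholds. p-values measure the spread between these samples only. Alternatives varied each threshold, the weighting, the tile start, the tools, pairing by replicate number (replicate block) and single replicates left out.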

Additional observations from a re-analysis of the deposited data

How the results depend on the processing

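Of 111 values under other settings, 74 stayed within the limits set for them. Most of the 111 were counts, which have no direction, and 0 of the others reversed theirs. The number of intermediate tiles followed the thresholds. It was 8115 with a minimum of 20 CpGs and 179 with 40, 1945 with a band of 25% to 75%, 401 with 35% to 65% and 77 with 40% to 60%. It fell to 36 when only CpGs with a coverage of 10 in all 6 samples counted. Whether tiles were then lost through fewer CpGs or through a changed level was not worked out. Leaving out 1 replicate gave 1113 to 1373, with the highest without iron-sufficient replicate 2. Even tiles numbered 75 when CpGs had to lie between 25% and 75% and 55 with a share of 90%, and 162 to 212 with 1 replicate left out. Edges numbered 475 with a difference of 40 percentage points and 261 to 280 with 1 replicate left out.

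With 5 samples the exact sign-flip permutation test cannot go below p = 0.0625, so the coverage and flank results pass no threshold there. Their differences were 0.0711 to 0.0832 and -0.403 to -0.364 for coverage against methylated and unmethylated tiles and -16.0 to -15.9 and 34.8 to 34.99 percentage points for flanks with 1 replicate left out. The difference in mean methylation between diets was 0.0738 to 0.326 percentage points with 1 replicate left out and 0.0281 in even tiles.

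No alternative called a tile, intermediate or not, so these fits do not show that the diets were alike. An unadjusted p under 0.05 was found in 2 to 6 intermediate tiles, beside 27400 to 45818 of all 1121479 tiles. In a separate fit of CpG-dense tiles only it was found in 2 intermediate tiles and in 1291 of all 37604. With 20 reads and no minimum of CpGs it was found in 6 intermediate tiles and in 47706 of all 1802354. With the replicate number as a block, 0 were called and 2 had an unadjusted p under 0.05, beside 29768 of all 1121479 tiles, and the paired difference in mean methylation was 0.221 percentage points as well. Deviations of samples with the same number did not correlate (r from -0.0251 to 0.0233 over the intermediate tiles). The sources do not say whether the numbers pair the samples, and these values cannot decide it. Leaving out replicates for the largest single differences was chosen after seeing the data.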

Other observations

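Beside the intermediate tiles, 2 of the 20 placed promoters of listed imprinted genes lay in tiles that were higher in iron deficiency without overlap of the replicates, and 0 in tiles that were lower. They were noticed after their values were seen. The tile of the placed Gnas promoter, on chromosome 3 from 165213001 to 165214000, had 29.4%, 28.5% and 24.7% in the iron-sufficient and 44.8%, 64.4% and 53.7% in the iron-deficient replicates, a weighted difference of 28.4 percentage points (edgeR's quasi-likelihood test, adjusted p = 1). The 18 CpGs of the promoter sequence itself overlapped between diets, with 34.8%, 55.2% and 70.8% in the iron-sufficient compared with 32.5%, 58.6% and 61.5% under iron deficiency. The tile of the Snrpn promoter, on chromosome 1 from 111592001 to 111593000, had 46.4%, 39.7% and 28.7% in the iron-sufficient and 56.2%, 58.2% and 63.3% in the iron-deficient replicates, a difference of 21.7 percentage points (adjusted p = 1 by edgeR's test). Its 11 promoter CpGs overlapped too, with 71.9%, 13.2% and 17.4% in the iron-sufficient compared with 78.3%, 55.9% and 63.2% under iron deficiency. Over all tiles, 5.98% were higher and 4.04% were lower in iron deficiency without overlap.

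On chromosome X, 2 of 989 CpG-dense tiles (0.202%) met the same band in all samples. They lay from 26614001 to 26615000 with 42 CpGs and from 160447001 to 160448000 with 54 CpGs. The median coverage of CpGs on chromosome X was 0.455 to 0.609 of that on the autosomes in the 6 samples.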
